A study of Mus musculus with 6 samples.

Results

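The 10 genes described here encode the Jun and Fos subunits of the transcription factor AP-1 (Jun, Junb, Jund, Fos, Fosb, Fosl1 and Fosl2), the AP-1 repressor Jdp2, and the zinc finger factors Egr1 and Egr2. They were chosen by gene symbol, and all 10 were matched to 1 gene each among the 55401 genes of the count tables. The RNA came from RAW264.7, a mouse macrophage cell line transformed by Abelson leukaemia virus. Libraries titled siN16 (3, genotype tag Nop16 KD) are called Nop16 siRNA, and libraries titled siCont (3, genotype tag WT) are called control siRNA; the treatment tag was "no" in all 6. The 1 treatment text given for all samples names Nop16 siRNA at 20 nM for 3 days with a lipid reagent, so how the control cells were transfected is not stated. Only this 1 transformed line was used, and the labels do not say whether replicates were grown separately. The p-values therefore reflect the spread among the 6 libraries alone, which may be technical.

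AP-1 is a dimer of basic leucine zipper proteins. Jun proteins pair with each other or with Fos proteins, whereas Fos proteins need a Jun partner, and the dimers bind the AP-1 site or the cyclic AMP response element (CRE). JDP2 pairs with Jun proteins and represses AP-1 sites. Fos, Jun, Junb, Egr1 and Egr2 are immediate early genes, whose transcription rises within minutes of growth factor, stress or pathogen signals through MAP kinases and existing factors such as SRF and CREB. Their mRNAs are short-lived and often carry AU-rich elements. In macrophages AP-1 acts beside NF-kB on inflammatory genes, and EGR1 and EGR2 have been linked to monocyte and macrophage differentiation.

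Promoter sequence is shown first, because it carries some of the sites by which these genes are known to answer signals. RefSeq start sites on GRCm38.p6 were matched for 8 members (not Fosl1 or Egr1), with 14 start sites in all, and the 250 bases before each were searched on both strands. Not all these starts match the gene models counted here. The Jund start lies 1210 bases before its model, and the Fosl2 start lies 671 bases inside its model. Jdp2 starts 2 and 3 lie 389 and 991 bases inside theirs, and Egr2 starts 2 to 5 lie 2091 to 2455 bases inside. The other starts lie within 78 bases of the start of their model. Jun (chr4:95052223-95052472, minus strand), Junb (chr8:84978749-84978998, minus strand) and Fos (chr12:85473640-85473889, plus strand) are given 5′ to 3′ up to the base before the start, with capitals marking every match to a searched motif.
Jun: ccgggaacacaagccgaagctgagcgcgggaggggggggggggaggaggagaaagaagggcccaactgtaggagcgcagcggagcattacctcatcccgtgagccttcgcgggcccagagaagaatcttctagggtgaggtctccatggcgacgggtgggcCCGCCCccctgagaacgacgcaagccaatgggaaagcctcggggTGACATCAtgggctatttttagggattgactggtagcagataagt
Junb: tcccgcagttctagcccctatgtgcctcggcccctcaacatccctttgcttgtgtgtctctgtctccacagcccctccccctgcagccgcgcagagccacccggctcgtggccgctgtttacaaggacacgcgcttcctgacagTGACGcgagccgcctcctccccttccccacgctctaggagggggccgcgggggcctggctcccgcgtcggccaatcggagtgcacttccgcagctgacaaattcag
Fos: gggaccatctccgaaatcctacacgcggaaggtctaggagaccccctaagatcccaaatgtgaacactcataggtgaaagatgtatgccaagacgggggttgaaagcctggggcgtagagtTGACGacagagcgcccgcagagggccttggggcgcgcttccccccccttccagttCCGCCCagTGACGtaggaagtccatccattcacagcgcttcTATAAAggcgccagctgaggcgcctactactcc
Jun holds the Jun-type AP-1 site TGACATCA at positions -45 to -38, counted back from the start. That motif was found in 2.93% of all 32851 such windows in RefSeq. Neither the AP-1 site TGANTCA (6.75% of all windows) nor the full CRE TGACGTCA (1.55%) was found in any of the 14 windows.

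The CRE core TGACG was found in at least 1 window of 5 of the 8 members (Junb, Fos, Fosb, Jdp2 and Egr2) and in 7 of the 14 windows, beside 17.8% of all windows. Of the 5 Egr2 windows the last 3 overlap each other, and the windows ranged from 47.6% to 72.4% GC, beside a median of 52.4% over all windows. The match nearest to the start is given here in capitals with its flanks (GRCm38.p6, 5′ to 3′ along the gene), to compare the genes that share it. The coordinates are chr12:85473812-85473840 for Fos, chr8:84978838-84978866 for Junb, chr7:19310089-19310117 for Fosb, chr12:85599290-85599318 for Jdp2 and chr10:67537802-67537830 for Egr2, where it lies on the opposite strand. The Jdp2 match precedes a start 389 bases inside the counted gene model, and the Egr2 match a start 2394 bases inside.
Fos: agttccgcccagTGACGtaggaagtccat
Junb: gcttcctgacagTGACGcgagccgcctcc
Fosb: tggagttgcgggTGACGcaagcgcggggg
Jdp2: tccgtccccctcTGACGtgtggagctggc
Egr2: tatgggcagcgaCGTCAcgggtattgaag
The EGR site GCGNGGGCG, found in 4.70% of all windows, occurred in 2 of the 14 windows, those of Fosl2 and Fosb, where it overlaps the GC box GGGCGG. In Fosl2 (chr5:32136383-32136411, plus strand) the window lies inside the first exon of the gene model counted here.
Fosl2: ccggctgcgcGCGGGGGCGgaagggcgcg
Within the searched windows only Egr2 among the 8 held a CArG box, the core of SRF sites, in 4 of the 14 windows (1.47% of all windows). These 4 include the last 3 Egr2 windows, which overlap each other. The match shown in capitals (chr10:67537787-67537816, plus strand) precedes a start that lies 2394 bases inside the gene model counted here.
Egr2: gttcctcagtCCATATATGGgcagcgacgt
The GC box was found in 6 of the 8 members and in 8 of the 14 windows, beside 32.7% of all windows. TATAAA was found in Fos alone (1 of the 14 windows, beside 12.4% of all windows). A match is only a stretch of letters, and binding was not measured. Sequence farther than 250 bases before a start was not searched, so a motif missing here may lie farther upstream, in Fos as in the others.

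Total counts were 15601477 to 18635089 in Nop16 siRNA libraries and 19778237 to 23061922 in control siRNA libraries. CPM are counts scaled to library size, with TMM factors, and 3 counts correspond to 0.163 to 0.194 CPM in Nop16 siRNA libraries and 0.129 to 0.151 CPM in control siRNA libraries. Such floors cover counting error only. Nop16 itself stood at 4.22 ± 0.316 CPM in Nop16 siRNA libraries and 18.9 ± 1.26 CPM in control siRNA libraries (SD, n = 3 each; log2 fold change -2.16, edgeR adjusted p = 2.94e-23). All 10 macrophage markers were detected, with summed levels of 8628 to 9039 CPM in Nop16 siRNA libraries and 5629 to 5930 CPM in control siRNA libraries. One by one, 6 of the 10 were called higher and 2 lower, beside 23% higher and 22.4% lower over all genes tested. The part of this marker difference in the results was not tested. Markers of other cells were far lower in sum. B cell markers summed to 46.1 to 51.3 CPM in Nop16 siRNA libraries and 51.1 to 56.9 CPM in control siRNA libraries, and of these Ighm was called lower (log2 fold change -0.89). Neutrophil markers summed to 14.5 to 16.8 CPM in Nop16 siRNA libraries and 11.7 to 16.3 CPM in control siRNA libraries, and T and NK cell, dendritic cell, fibroblast and epithelial markers to at most 4.95 CPM per list in Nop16 siRNA libraries and 5.93 CPM in control siRNA libraries. Of the defining markers of other cells, Cd3e, Col1a2, Col3a1, Krt8, Krt18 and S100a9 had no count in any library.

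Jund RNA was by far the most abundant of the 10 in every library, and the Fos and Egr genes were low. Levels between genes are compared in FPKM, which are CPM divided by the length of the gene model in kilobases. Jund averaged 244 ± 29.5 FPKM in Nop16 siRNA libraries and 262 ± 17.2 FPKM in control siRNA libraries. Jdp2 averaged 16.1 ± 0.96 FPKM in Nop16 siRNA libraries and 19.4 ± 0.856 FPKM in control siRNA libraries. Fosl2 averaged 6.99 ± 0.345 FPKM in Nop16 siRNA libraries and 5.34 ± 0.387 FPKM in control siRNA libraries, and Fos 3.64 ± 0.259 FPKM in Nop16 siRNA libraries and 3.42 ± 0.137 FPKM in control siRNA libraries (SD, n = 3 each). These 4 genes kept their order, Jund, Jdp2, Fosl2, Fos, in all 6 libraries, with no overlap between neighbours.

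Jun and Junb lay between Jund and Jdp2, and their order in FPKM differed between the groups. Junb ran from 55.7 to 62.7 FPKM in Nop16 siRNA libraries, above Jun at 53.6 to 55.5 FPKM. In control siRNA libraries Junb ran from 49.5 to 51.9 FPKM, below Jun at 54.6 to 59.2 FPKM. In both groups the ranges of the pair lay next to each other without overlap. The order of genes this close depends on the model lengths used. The RefSeq start of Junb lies 30 bases before its counted model of 1809 bases.

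At the low end, Egr2 ran from 0.424 to 0.543 FPKM and Egr1 from 0.257 to 0.448 FPKM in Nop16 siRNA libraries. In control siRNA libraries Egr2 ran from 0.148 to 0.367 FPKM and Egr1 from 0.214 to 0.347 FPKM, so the Egr genes overlapped in both groups. Fosl1 (0.113 to 0.254 FPKM in Nop16 siRNA libraries, 0 to 0.148 FPKM in control siRNA libraries) and Fosb (0.0435 to 0.0724 FPKM in Nop16 siRNA libraries, 0.0482 to 0.0949 FPKM in control siRNA libraries) were lowest, and the 2 genes overlapped in control siRNA libraries.

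**Figure D1:**
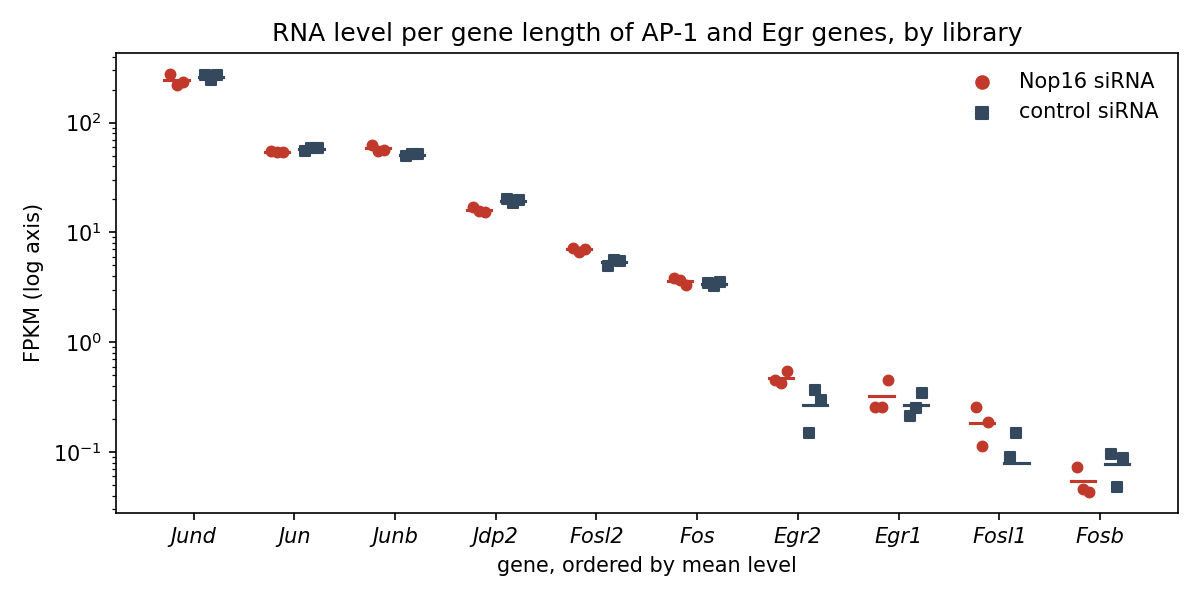
FPKM (log axis) of the 10 genes in each library, with Nop16 siRNA libraries as circles on the left of each pair and control siRNA libraries as squares on the right; short lines are group means. Jund lies above 200 FPKM in all 6 libraries, and the Egr genes, Fosl1 and Fosb lie below 1 FPKM; the 1 control library with 0 counts of Fosl1 cannot be drawn.

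Summed over each family, Jun transcripts made up 93.0% ± 0.293 of the AP-1 and Jdp2 FPKM in Nop16 siRNA libraries and 92.9% ± 0.138 in control siRNA libraries. The Fos family made up 2.84% ± 0.125 in Nop16 siRNA libraries and 2.24% ± 0.149 in control siRNA libraries, and Jdp2 4.20% ± 0.178 in Nop16 siRNA libraries and 4.87% ± 0.0958 in control siRNA libraries (SD, n = 3 each). RNA levels do not give protein levels, and in bulk RNA fewer cells that use a gene and less RNA per cell cannot be told apart.

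Of the 8 genes that could be tested, 4 were called between Nop16 siRNA and control siRNA. Junb (1.14-fold), Fosl2 (1.31-fold) and Egr2 (1.75-fold) were higher and Jdp2 (0.826-fold) was lower. Jun, Jund, Fos and Egr1 did not pass, and Fosb and Fosl1 fell short of the count filter. The test was edgeR's quasi-likelihood test over 14269 genes with a Benjamini-Hochberg adjusted p below 0.05. Over all genes tested 45.4% were called, 23% higher and 22.4% lower, so 4 of 8 is near the background. Without Nop16 siRNA replicate 1 the members called lower numbered 3, and without control replicate 1 they numbered 2. The groups did not overlap for the same 4 members, beside 52.5% of all genes. The median log2 fold change of the 8 was 0.14, and that of all genes was -0.000196.

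**Figure D2:**
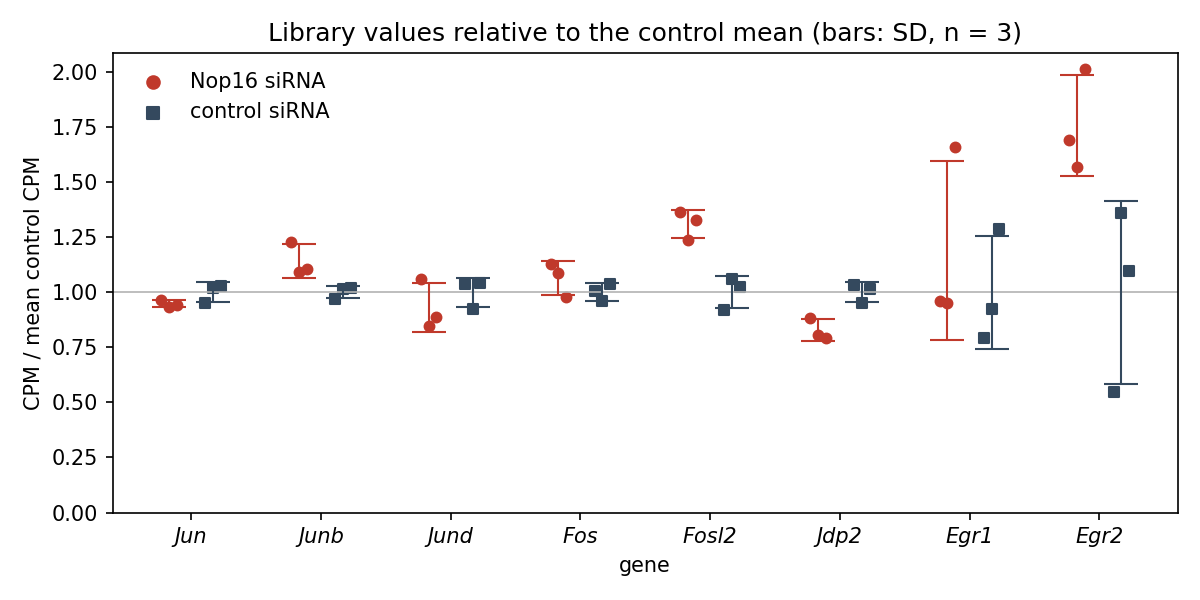
CPM of each library divided by the control mean of that gene, for the 8 tested genes, with Nop16 siRNA circles left of control siRNA squares and bars for the SD (n = 3). Fosl2 and Junb circles lie above all squares and Jdp2 circles below them, while the Egr genes spread widely.

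Among the Jun genes, which supply the partner that every AP-1 dimer needs, only Junb was called. Junb (ENSMUSG00000052837, chromosome 8 from 84976910 to 84978718, minus strand, 1 exon) encodes a Jun protein that can restrain or replace c-Jun. It stood at 113, 101 and 102 CPM in Nop16 siRNA replicates 1 to 3, against 89.5, 93.7 and 94.0 CPM in control siRNA replicates 1 to 3. Every Nop16 siRNA library lay above every control library, by a margin smaller than the spread within the Nop16 siRNA group. The fold was 1.14 (log2 fold change 0.19, SE 0.0442, 95% interval 0.10 to 0.28, edgeR adjusted p = 0.000308). Tested against a minimum fold of 1.2, Junb did not pass (adjusted p = 1; range over 18 alternatives 0.000107 to 1).

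Jun, which encodes c-Jun, and Jund, which encodes the steadily expressed JunD, were not called. Jun (ENSMUSG00000052684, chromosome 4 from 95049034 to 95052222, minus strand, 1 exon) stood at 177, 171 and 173 CPM in Nop16 siRNA libraries and at 174, 187 and 189 CPM in control siRNA libraries. The groups overlapped, with control replicate 1 among the Nop16 siRNA values. Its log2 fold change was -0.08 (SE 0.0356, 95% interval -0.15 to -0.01, edgeR adjusted p = 0.0654). The call depended on the setting, since Jun passed as lower in 6 of 18 alternatives (adjusted p from 0.0132, without control replicate 1, to 1). Without Nop16 siRNA replicate 1 the adjusted p was 0.0489. The log2 fold change lay between -0.12 and -0.058 throughout.

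Jund (ENSMUSG00000071076, chromosome 8 from 70698949 to 70700616, plus strand, 1 exon) stood at 463, 370.3 and 389 CPM in Nop16 siRNA libraries and at 453, 404 and 455 CPM in control siRNA libraries. Nop16 siRNA replicate 1 was the highest of all 6 and the other two were the lowest. The log2 fold change was -0.10 (SE 0.11, 95% interval -0.41 to 0.20, edgeR adjusted p = 0.52). Without Nop16 siRNA replicate 1 it was -0.20 and passed (adjusted p = 0.00142; range over 18 alternatives 0.00142 to 1). An antisense gene model, Gm11175, covers 52.6% of the Jund model on the other strand and had 2251 counts over the 6 libraries, against 49169 for Jund. The counting was strand-specific.

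Among the Fos genes, whose products bind DNA only with a Jun partner, Fosl2 showed the firmest change of the 10. Fosl2 (ENSMUSG00000029135, chromosome 5 from 32135801 to 32157842, plus strand, 4 exon blocks) encodes Fra-2, a Fos protein without the strong activation domain of c-Fos. It stood at 70.4, 64.0 and 68.6 CPM in Nop16 siRNA libraries, against 47.5, 54.8 and 52.8 CPM in control siRNA libraries. The groups were well apart. The fold was 1.31 (log2 fold change 0.39, SE 0.0545, 95% interval 0.28 to 0.50, edgeR adjusted p = 1.8e-08). Fosl2 passed in all 18 alternatives, including a minimum fold of 1.2 (adjusted p = 0.0209, the highest of the 18). A larger absolute change was seen in 25.6% of all genes tested.

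Fos itself, the classical early gene, did not pass. Fos (ENSMUSG00000021250, chromosome 12 from 85473890 to 85477273, plus strand, 4 exon blocks) stood at 9.05, 8.75 and 7.87 CPM in Nop16 siRNA libraries and at 8.07, 7.70 and 8.34 CPM in control siRNA libraries. The groups overlapped, and the log2 fold change was 0.09 (SE 0.128, 95% interval -0.17 to 0.34, edgeR adjusted p = 0.607). The Fosl2 estimate (0.39) lies outside that interval, but the Fosl2 interval (0.28 to 0.50) overlaps it. No test between these genes was made.

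Fosb and Fosl1, which encodes Fra-1, were at the limit of detection. Fosb had 7, 5 and 5 counts in Nop16 siRNA libraries and 13, 7 and 11 counts in control siRNA libraries. Fosl1 had 8, 4 and 7 counts in Nop16 siRNA libraries and 4, 7 and 0 counts in control siRNA libraries. With no filter neither passed (edgeR adjusted p = 0.601 for Fosb and 0.343 for Fosl1), so no difference was detected at this depth. The gene Ccdc85b covers 57.2% of the Fosl1 model on the other strand and had 2266 counts over the 6 libraries, against 30 for Fosl1, so even these few counts are uncertain.

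Jdp2, the repressor among the AP-1 genes, was lower. Jdp2 (ENSMUSG00000034271, chromosome 12 from 85599027 to 85639878, plus strand, 7 exon blocks) stood at 36.9, 33.7 and 33.0 CPM in Nop16 siRNA libraries, against 43.2, 39.7 and 42.4 CPM in control siRNA libraries. The groups did not overlap. Jdp2 fell by 0.28 on the log2 scale (SE 0.0649, 95% interval of the log2 fold change -0.41 to -0.15, edgeR adjusted p = 0.000332). It did not pass against a minimum fold of 1.2 (adjusted p = 0.591), and passed in the other 17 alternatives (adjusted p from 6.01e-05).

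**Figure D3:**
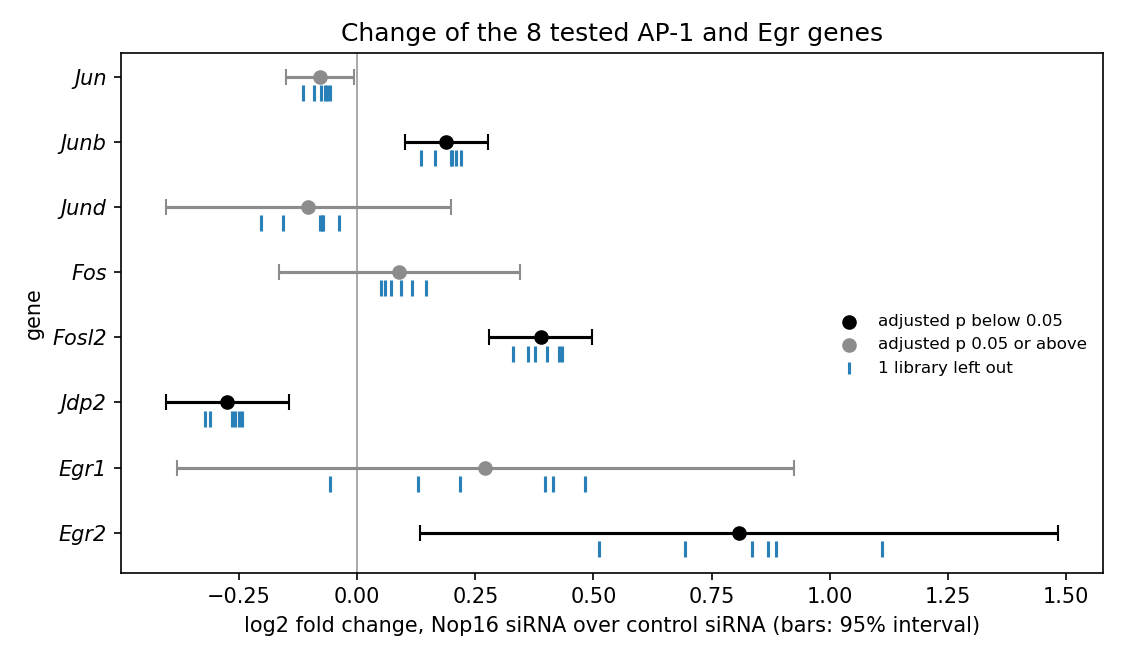
Log2 fold change of Nop16 siRNA over control siRNA for the 8 tested genes, with 95% intervals, black where the adjusted p was below 0.05; ticks beneath each gene are the values with 1 library left out. The Fosl2, Junb and Jdp2 ticks stay on their own side of 0, and the Egr1 ticks lie on both sides.

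Fosl2 and Jdp2 moved in opposite directions, and their ratio within a library does not depend on scaling. Per Jdp2 count there were 1.91, 1.90 and 2.08 Fosl2 counts in Nop16 siRNA libraries, against 1.10, 1.38 and 1.24 in control siRNA libraries. Per Jun count there were 0.641, 0.589 and 0.591 Junb counts in Nop16 siRNA libraries, against 0.514, 0.501 and 0.498 in control siRNA libraries. Neither ratio overlapped between the groups. The Fosl2 to Fos ratio, at 7.79, 7.31 and 8.72 in Nop16 siRNA libraries and 5.89, 7.11 and 6.33 in control siRNA libraries, did not overlap either, but by a small margin. These pairs were chosen after the values were seen, and no test was made of them.

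**Figure D4:**
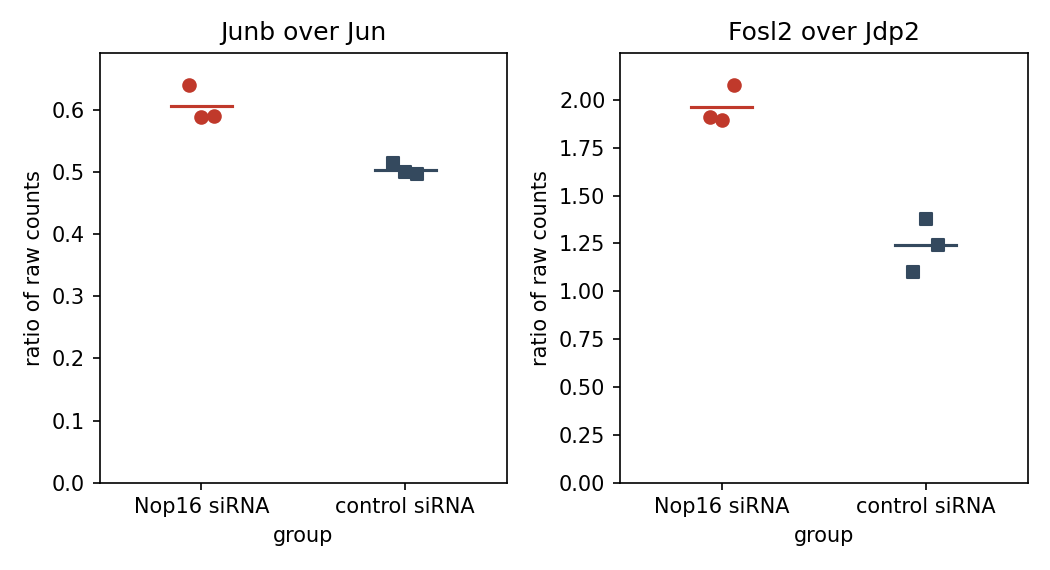
Ratios of raw counts within each library, Junb over Jun (left panel) and Fosl2 over Jdp2 (right panel), with Nop16 siRNA libraries as circles on the left and control siRNA libraries as squares on the right; lines are means. The Nop16 siRNA points lie above the control points in both panels.

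Fos and Jdp2 are neighbours, 121753 bases apart on chromosome 12, with Batf, another gene of the AP-1 family, beyond Jdp2. Batf had 1 count in 1 control library. Within 200 kb of Fos and Jdp2, Tmed10, a cargo receptor of the early secretory pathway, was lower (212 CPM in Nop16 siRNA libraries, 267 CPM in control siRNA libraries, log2 fold change -0.34, edgeR adjusted p = 2.32e-13). The other tested genes, Acyp1, Nek9, Gm47863, Erg28 and Ttll5, did not pass, with edgeR adjusted p from 0.0762 to 0.771. Of the 8 tested genes in that window, Fos and Jdp2 included, 2 were thus lower, a share near the 22.4% of all genes.

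The Egr genes were low and imprecise. EGR1 and EGR2 are zinc finger activators that induce their own NAB corepressors. Egr2 (ENSMUSG00000037868, chromosome 10 from 67535475 to 67542188, plus strand) had 24, 25 and 34 counts in Nop16 siRNA libraries and 11, 29 and 20 counts in control siRNA libraries. This was 1.55, 1.44 and 1.85 CPM in Nop16 siRNA libraries, against 0.501, 1.25 and 1.00 CPM in control siRNA libraries, so the groups did not overlap, and control replicate 1 was far below the rest. The fold was 1.75 (log2 fold change 0.81, SE 0.337, 95% interval 0.13 to 1.48, edgeR adjusted p = 0.0447).

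The Egr2 call held in only 5 of 17 alternatives (adjusted p from 0.0213 to 0.273). Egr2 was not tested under the filter of 5 CPM. The call was lost in DESeq2 (adjusted p = 0.138) and without control replicate 1 (log2 fold change 0.51, adjusted p = 0.273). Leaving out Nop16 siRNA replicate 1 (adjusted p = 0.0769), replicate 2 (0.0601) or replicate 3 (0.173), or control replicate 3 (0.0685), ended it too.

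Egr1 (ENSMUSG00000038418, chromosome 18 from 34859823 to 34864984, plus strand) had 18, 20 and 37 counts in Nop16 siRNA libraries and 21, 26 and 31 counts in control siRNA libraries. This was 1.16, 1.15 and 2.01 CPM in Nop16 siRNA libraries and 0.957, 1.12 and 1.56 CPM in control siRNA libraries. The groups overlapped, with the highest value in Nop16 siRNA replicate 3. The log2 fold change was 0.27 (SE 0.326, 95% interval -0.38 to 0.93, edgeR adjusted p = 0.532), and without Nop16 siRNA replicate 3 it was -0.0586 and still did not pass. Egr1 did not pass in any of the 17 alternatives that tested it (adjusted p from 0.329 to 0.971).

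Of the NAB corepressors, Nab1 rose 1.17-fold (83.6 ± 1.63 CPM in Nop16 siRNA libraries, 71.3 ± 2.72 CPM in control siRNA libraries, SD, n = 3 each; edgeR adjusted p = 3.87e-05). Nab2 stood at 24.9 ± 1.92 CPM in Nop16 siRNA libraries and 21.7 ± 2.34 CPM in control siRNA libraries and missed the threshold (log2 fold change 0.20, edgeR adjusted p = 0.0504). Nab2 passed in 6 of 18 alternatives (adjusted p from 0.0181 to 1). Egr3 (2.08 CPM in Nop16 siRNA libraries, 2.51 CPM in control siRNA libraries, edgeR adjusted p = 0.396) did not pass, and Egr4 and Wt1 fell short of the count filter. Egr4 had 21, 5 and 22 counts in Nop16 siRNA libraries and 5, 5 and 4 counts in control siRNA libraries. Nop16 siRNA replicate 2 lay close to the control libraries, though the groups did not overlap in CPM. Egr4 passed as higher in all 6 alternatives that tested it (adjusted p from 5.55e-05 to 0.00968), no filter (log2 fold change 2.09) and DESeq2 (2.14) among them, and fell short of the filter in the others, which include those without Nop16 siRNA replicate 1 or 3.

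Gene structure and 3′ UTRs were compared as features that the choice of members did not use. Jun, Junb and Jund are each a single exon, and the Jund model counted here starts 1210 bases after the RefSeq start. In GENCODE 3′ UTRs, the AU-rich pentamer ATTTA occurred in 9 of the 10 members and in 65.3% of 11346 tested genes with a 3′ UTR. It occurred 4 times each in Fos and Jun and 8 times in Fosl2, while Jdp2 had none. Per kilobase of 3′ UTR, Fos (4.91), Junb (4.12) and Jun (3.24) were highest, beside a median of 1.18 over all genes. The longer element TTATTTATT was found in Fos and Fosl2 and in 6.98% of all genes. Members with the pentamer included genes that were higher and genes that did not pass.

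The genes whose pattern over the libraries was most like that of Jun were Ap1ar, Fhod1 and Trappc12. These 3 had the smallest root mean square difference from Jun in gene-centred log2 CPM over 6 libraries (0.014, 0.0185 and 0.0201), among 10790 candidates averaging 5 CPM or more. Ap1ar is named for the AP-1 adaptor complex of vesicle traffic, not for the transcription factor. For Egr1 the closest were Gm8989, Adam3 and Zfp51 (0.141, 0.148 and 0.162). None of these 6 genes was called, with edgeR adjusted p from 0.157 to 0.707. That follows in part from how they were picked, since Jun and Egr1 were not called themselves.

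Other immediate early genes were tested in the same fit. Of 41, 22 (53.7%) were higher and 8 (19.5%) lower, beside 23% higher and 22.4% lower over all genes, and the median of their log2 fold changes was 0.18. The list was written with earlier results of these data known, so its share is a description only. No test of the difference from the members was made. Plk3, a stress-responsive kinase, rose 2.12-fold (27.0 ± 1.93 CPM in Nop16 siRNA libraries, 12.7 ± 0.947 CPM in control siRNA libraries). Nfkbia and Nfkbiz, both NF-kB feedback genes, rose 1.86-fold and 1.83-fold. Gadd45b, a stress and MAP kinase regulator, fell by 0.78 on the log2 scale, and, chosen after the values were seen, Gadd45a and Gadd45g fell by 0.58 and 0.34.

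Basic leucine zipper partners of AP-1 split evenly, with 8 higher (40%) and 8 lower (40%) of 20 tested (median 0.04), beside 23% and 22.4% of all genes. Crem, a CRE-binding modulator, rose 1.46-fold, and Nfe2l2, which encodes the oxidative stress factor NRF2, rose 1.33-fold. Ddit3, which encodes the stress factor CHOP, fell by 0.62 on the log2 scale and Bach2 by 0.42. The Bach2 call (edgeR adjusted p = 0.0158) was lost in 4 of 18 alternatives (adjusted p from 0.00874 to 0.218), among them DESeq2 (0.0715). Leaving out Nop16 siRNA replicate 3 (0.0826) or control replicate 2 (0.147) ended it too. Chosen after the values were seen, the small Maf genes Maff (0.97), Mafk (0.34) and Mafg (0.26) were higher, as log2 fold changes. The Atf, Creb and Crem genes of the list did not share a direction. Atf1 (-0.26), Atf2 (-0.27), Atf5 (-0.21), Atf7 (-0.32) and Creb1 (-0.23) were lower, and Atf3 (0.12), Atf4 (0.12) and Crem (0.54) higher. All of these but Crem were named after their values were seen.

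Genes upstream of the members were called in both directions, and the shares of each list stand beside 23% higher and 22.4% lower over all genes. Of 6 tested genes of SRF and its partners, the SRF coactivator Mrtfa was higher (1.12-fold) and the other 5, Srf included, did not pass. Cited2, a coregulator that binds CBP and p300 and stood in the same list without being an SRF partner, was higher too (1.23-fold). In the MAP kinase cascade 9 genes were higher (25%) and 12 lower (33.3%) of 36 tested (median -0.00437). Map2k4, a kinase of the JNK branch that phosphorylates c-Jun, rose 1.57-fold and Mapkapk3 1.41-fold, while Rps6ka5, which encodes the CREB kinase MSK1, fell by 0.67 and Braf by 0.47 on the log2 scale. Of 19 turnover factors and cofactors 5 were higher (26.3%) and 6 lower (31.6%; median -0.08), and 3 were lower without control replicate 2. Fbxw7, a ubiquitin ligase subunit that targets c-Jun, rose 1.40-fold, and Cul4a and the coactivator gene Ep300 each fell by 0.24 on the log2 scale.

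Reported AP-1 target genes were mostly higher. Of 26 tested, 19 (73.1%) passed as higher and 2 (7.69%) as lower, beside 23% and 22.4% of all genes, and the median of their log2 fold changes was 0.79. Ptgs2, the inducible cyclooxygenase, rose 6.44-fold (66.4 ± 1.60 CPM in Nop16 siRNA libraries, 10.3 ± 0.66 CPM in control siRNA libraries). The integrin gene Itgax rose 3.88-fold and the matrix metalloproteinase genes Mmp13 and Mmp12 3.84-fold and 3.48-fold. Mmp9 (-0.33) and the cyclin gene Ccnd1 (-0.13), named after their values were seen, were the 2 lower. Many of these genes answer NF-kB and other factors too, several were known to rise here when the list was written, and the share of AP-1 in their change was not tested.

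**Figure D5:**
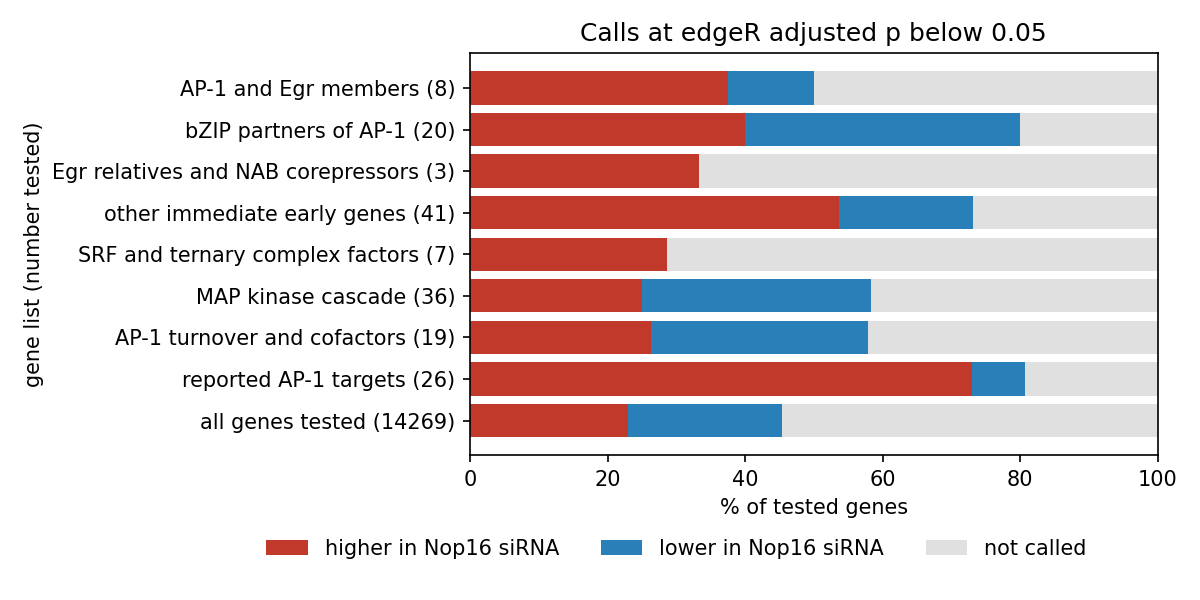
Share of tested genes called higher (red) or lower (blue) in Nop16 siRNA than in control siRNA libraries for each gene list, with the number tested in brackets and all tested genes as the bottom bar. The lists were written with earlier results of these data known. The SRF list includes Cited2, which is not an SRF partner. The 8 AP-1 and Egr genes (3 higher, 1 lower) lie near the bar of all genes, and the reported targets have the largest red share of the lists drawn.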

How the data were processed

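The authors deposited raw counts of fragments per gene for 6 libraries, made with featureCounts 2.0.1 on filtered Ensembl release 101 models of GRCm38, per the file headers. Counting was strand-specific (setting 2) and took properly paired fragments with at least 10 overlapping bases, multi-mapped and multi-overlapping ones included, so paralogs and overlapping genes can share fragments. Per the submitters' processing notes, HISAT2 2.2.1 and Trim Galore were used with mm10. Symbols were matched for 55141 of 55401 genes. Of 227 list entries 226 matched 1 gene; Ddit3 matched 2 overlapping models, of which the longer was used. Counts were tested with edgeR 4.0.16 (R 4.3.3): quasi-likelihood, robust, TMM, filterByExpr (minimum count 10). SE is the log2 fold change over the root of F; intervals are 95%. CPM and FPKM use TMM-scaled library sizes. On simulated counts for this comparison (14269 genes), recovery was 62% at a fold of 1.2, 98% at 1.5 and 100% at 2, and 5.26% of calls were false. Changes were put into 50 genes per fold, all at 5 CPM or more in control libraries, so the recovery does not cover Egr1 or Egr2. Far more genes were called in the data (45.4%), where recovery may differ.

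The 10 members, the lists and the alternatives were chosen with earlier results of these data known. Named genes are Nop16, all members, up to 4 called genes per list with the largest change at 5 CPM or more (or 2 abundant ones), tested genes within 200 kb of Fos and Jdp2, and the 3 genes closest to Jun and to Egr1 in pattern. As alternatives, the fit was repeated with other scalings and filters, without robust estimation, with a replicate block, a minimum fold, thinned counts, each library left out, limma-voom (limma 3.58.1) and DESeq2 1.42.0. No 2 libraries of a group agreed within sampling noise (chi-square over its degrees of freedom at least 2.52). GENCODE release 21 gave 3′ UTRs, and RefSeq gave promoters. Some genes that the rule takes are not reported here.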

Additional observations from a re-analysis of the deposited data

How the results depend on the processing

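Fosl2 kept its direction and call in all 18 alternatives, and Fos, Jund and Jun kept their direction. Junb (0.19) and Jdp2 (-0.28) lost their calls only against a minimum fold of 1.2. Jun passed with scaling by library size only (-0.10), upper-quartile scaling (-0.088), the 5 CPM filter (-0.082) and, an alternative chosen after the data were seen, protein-coding genes only (-0.0905). Egr2 lost its call with library size only (0.79), in DESeq2 (0.81), with no filter (0.80), with robust off (0.81), against the minimum fold (0.81) and with thinning (0.77); the cause was not tested. With the replicate number as a block, Jund passed (-0.11, adjusted p = 0.0185), Egr2 did not (0.83, 0.0501), and 2 members were lower. Same-numbered libraries did not deviate together (Pearson r of 0.0175, -0.0198 and -0.0223 across genes, and not every library correlated best with its own number), so the numbers are not taken to pair them. The block called 6429 genes against 6482 without it.

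With 1 library left out, log2 fold changes ran from -0.12 to -0.058 for Jun, 0.14 to 0.22 for Junb, -0.20 to -0.0396 for Jund, 0.0496 to 0.15 for Fos, 0.33 to 0.43 for Fosl2, -0.32 to -0.24 for Jdp2, -0.0586 to 0.48 for Egr1 and 0.51 to 1.11 for Egr2. Lower members then numbered 1 to 3 (3 without Nop16 siRNA replicate 1, 2 without control replicate 1), higher Egr relatives 1 to 3 (3 without Nop16 siRNA replicate 2, control replicate 2 or control replicate 3, and 2 without control replicate 1), and lower turnover factors 3 to 7 (3 without control replicate 2). Lower members numbered 2 with library size only, upper-quartile scaling, the 5 CPM filter and protein-coding genes only. Higher Egr relatives numbered 2 with DESeq2 size factors in edgeR, in DESeq2, with no filter, with the 5 CPM filter and with thinning. TPM keeps the order of genes within a library by construction, so it gave no check of the level order.

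Against the minimum fold of 1.2, which called 2361 genes, 1 member was higher and 0 lower, where edgeR without a minimum, DESeq2 and limma-voom each called 1 lower. The higher and lower counts were then 3 and 1 for leucine zipper partners, 12 and 3 for other early genes, 3 and 4 for MAP kinase genes and 1 and 0 for turnover factors (4 lower in DESeq2, 5 in limma-voom). Egr relatives and the SRF list had 0 higher (2 each in DESeq2), and reported targets 1 lower. At unadjusted p below 0.05 against that fold these counts of 0 were also 0. Nab1, Cited2, Mrtfa, Cul4a and Ep300 lost their calls against that fold alone. Scaling by library size only called 2949 of 6419 genes higher, against 3287 of 6482. Egr1, Egr2, Fosb and Fosl1 each had under 40 counts per library, and depth was not separated from the spread between libraries.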
